A study of Mus musculus with 8 samples.

Results

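The genes described here are Myc and 34 factors that build ribosomes, 35 genes chosen by name from the 53465 gene IDs in the count files. All 35 were measured and all passed the filter on low counts, with raw counts per library between 888 (Noc3l) and 60114 (Npm1). They were followed in mouse regulatory T cells (Tregs) polarized in culture, with the FABP5 inhibitor (FABPi, n = 4) or without it (Treg, n = 4). Both groups came from wild-type C57BL/6 mice whose CD4+ T cells, from spleen and peripheral lymph nodes, were positively selected. All cultures were stimulated through plate-bound anti-CD3 at 5 µg/mL with anti-CD28 at 0.5 µg/mL, and polarized with 5 ng/mL of TGF-β and 100 U/mL of IL-2 while antibodies blocked IFN-γ, IL-4 and IL-12. At 72 h they were split, and the FABPi cultures were given 50 µM BMS309403, a small molecule that binds fatty acid-binding proteins and was used against FABP5. The labels name no vehicle, no duration of exposure and no animal age, and an effect of the solvent or on other proteins cannot be told apart from one on FABP5.

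Ribosomes are assembled in the nucleolus. RNA polymerase I transcribes the long ribosomal RNA precursor there, small nucleolar ribonucleoproteins (snoRNPs) guide its chemical modification and cutting, and separate sets of assembly factors then shape the small and the large subunit before export to the cytoplasm. MYC, a transcription factor that binds DNA as a dimer with MAX, is known to raise transcription of many of these genes in activated T cells, which need ribosomes to grow and divide.

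Library totals lay between 38.7 and 42.6 M counts in FABPi and between 32.9 and 44.6 M in Treg. The defining Treg markers were present, with Foxp3 at 1247 ± 15.3 CPM in FABPi and 950.0 ± 55.6 CPM in Treg and Il2ra at 3412 ± 205 and 2562 ± 300 CPM (SD, n = 4 each). Of the 7 T cell and Treg markers looked at, 3 were higher in FABPi, Foxp3, Il2ra and Ikzf2. Of the same 7, 2 were lower, Cd3e and Cd3d, and Cd4 and Ctla4 did not pass. CPM gives each count as a share of its scaled library total, so fewer cells of a type and less RNA per cell cannot be told apart. Over all 14443 tested genes, edgeR's quasi-likelihood test called 18.7% higher and 18.1% lower in FABPi at an adjusted p under 0.05, and the median log2 fold change was 0.01. Whether replicates were separate mice or cultures is not in the labels, and p-values then measure only how far these samples spread, which may be technical. Deviations from the group means correlated between same-numbered libraries, at 0.384, 0.145, 0.106 and 0.264 for numbers 1 to 4. Those of FABPi replicate 2 correlated best with Treg replicate 4. A pairing by number is stated in no label and was assumed from these same counts. Results that use the number rest on this assumption. The fit that holds the number as a replicate block is given beside a result where it changed the call.

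Of the 8 libraries, replicate 1 of each group stood apart for these genes. FABPi replicate 1 was the highest library of its group for 34 of the 35 members (31.3% of all tested genes), and Treg replicate 1 was the highest of its group for 35 of 35 (35.9% of all tested genes). Its excess over the mean of the other 3 libraries had a median of 1.17-fold in FABPi and 1.30-fold in Treg. Treg replicate 1 lay above FABPi replicates 2, 3 and 4 for 27 members, and the share of all tested genes with this order is not given here. Results are therefore given with and without these libraries, and leaving out both of them was an alternative chosen after the data were seen.

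Most of the 35 members had slightly higher levels in FABPi, and Myc had the largest difference. Without a replicate block, 12 of 35 (34.3%) were higher and 0 were lower, beside 18.7% and 18.1% of all tested genes. The 12 were Myc, Polr1a, Polr1b, Polr1c, Ltv1, Rrp9, Wdr43, Nop14, Ppan, Noc3l, Nop56 and Ncl. No member was lower at an unadjusted p under 0.05 (0 of 35), and DESeq2 and limma-voom also called 0 lower. At an unadjusted p under 0.05, 22 were higher. The share of all tested genes at this unadjusted threshold is not given here for either direction. DESeq2 called 12 higher (9.46% of 27128 genes with at least 1 count, any without an adjusted p included) and limma-voom 14 (18.7% of 14443). In edgeR, 11 were called higher with DESeq2 size factors (17.8% of all tested genes), 16 with upper-quartile scaling (19.7%) and 18 with library totals alone (20.4%). With no filter on low counts, 22 were called higher (10.0% of 27128 genes). The shares of 27128 genes include genes with few counts and cannot be set directly against those of 14443. The median log2 fold change of the 35 was 0.21 (1.15-fold), with a range of -0.07 to 0.53, and 31 lay above 0 (51.0% of all tested genes). With the replicate number as a block, 29 members were higher and 1, Pes1, was lower, beside 26.6% and 25.8% of all tested genes.

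**Figure D1:**
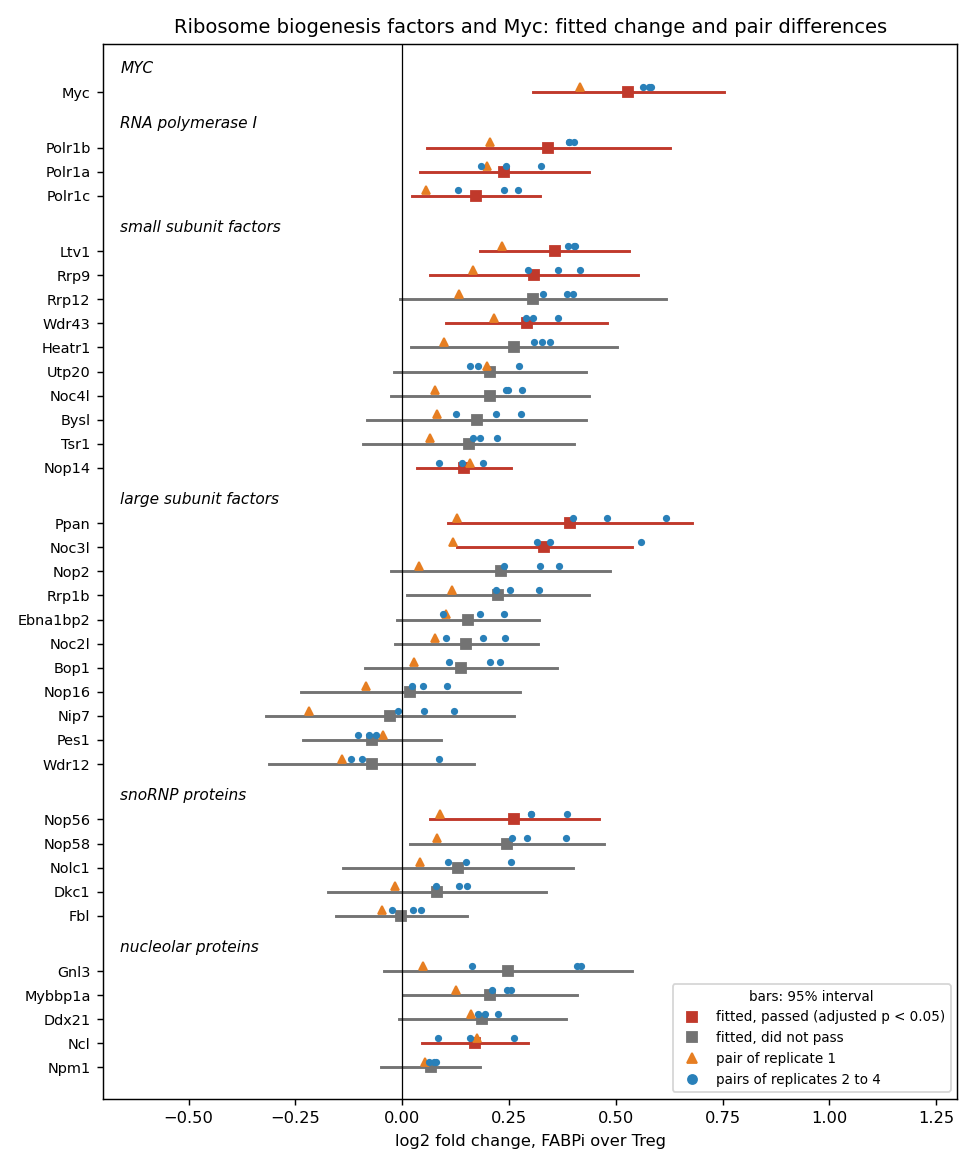
Fitted log2 fold change, FABPi over Treg, of the 35 members, grouped by role (squares, with 95% intervals as bars; red passed at adjusted p under 0.05, grey did not), with the difference of each same-numbered pair of libraries above it (triangle for replicate 1, dots for replicates 2 to 4). Myc stands furthest to the right at 0.53, 31 of 35 squares lie above 0, and the triangle is often the lowest of the 4 pair values.

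The size of the difference depended on which libraries were compared. The median difference over the members was 0.09 on the log2 scale in the pair of replicate 1, 0.26 in that of replicate 2, 0.19 in that of replicate 3 and 0.24 in that of replicate 4. Of the 35 members, 29 were higher in FABPi in all 4 pairs, as were 30.8% of all tested genes. Every FABPi library lay above every Treg library for 5 members, Myc, Polr1c, Ltv1, Nop14 and Noc3l, beside 17.7% of all tested genes. With both libraries of replicate 1 left out, 30 members had groups that did not overlap (26.8% of all tested genes), and 29 were called higher (21.2% of all tested genes) with a median of 0.21. With only Treg replicate 1 left out, 29 were called higher (20.1%) and the median was 0.29. With only FABPi replicate 1 left out, 4 were called higher (18.0%) and the median was 0.14. The other single omissions gave 6 without FABPi replicate 2 (14.6% of all tested genes), 9 without FABPi replicate 3 (16.8%) and 10 without FABPi replicate 4 (14.7%). They gave 4 without Treg replicate 2 (14.2%), 5 without Treg replicate 3 (14.2%) and 5 without Treg replicate 4 (18.0%). Without both libraries of replicate 2, 3 or 4, they were 2 (10.4%), 3 (12.2%) and 3 (14.0%). With the block and any of these pairs left out, 28 were called higher, beside 21.2%, 22.8% and 23.1% of all tested genes.

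**Figure D2:**
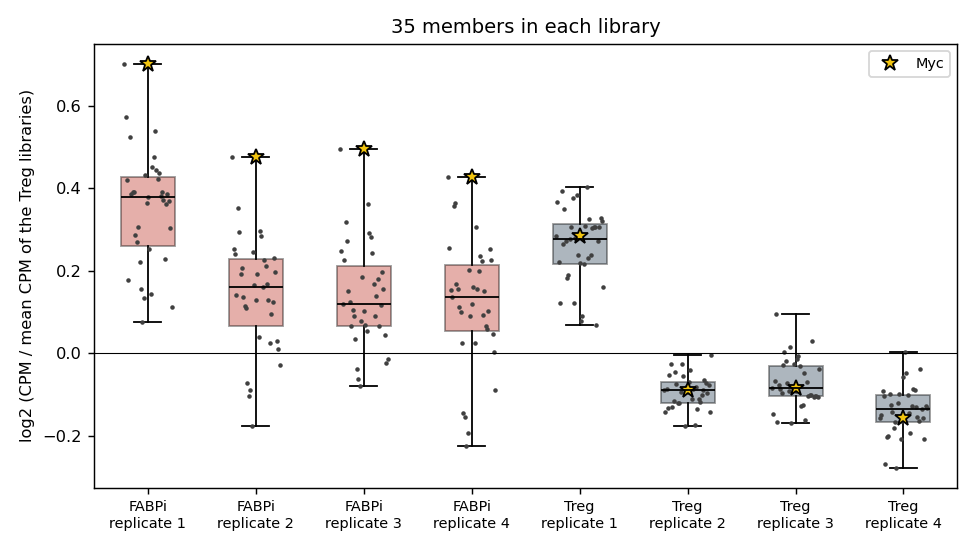
Level of each of the 35 members in each library as log2 of its CPM over the mean CPM of the 4 Treg libraries (dots; boxes span the quartiles, whiskers the range; the star is Myc). FABPi replicate 1 is the highest library and Treg replicate 1 lies above the other 3 Treg libraries, which sit mostly below 0.

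Summed over the 34 factors without Myc, the levels were 6972, 6262, 6141 and 6166 CPM in FABPi replicates 1 to 4, against 6517, 5454, 5576 and 5406 CPM in Treg replicates 1 to 4. The groups overlapped through Treg replicate 1 alone. The 34 factors took 0.639 ± 0.0394% of the reads in FABPi and 0.574 ± 0.0524% in Treg (SD, n = 4 each). The members' median coefficient of variation was 8.56% in FABPi and 14.5% in Treg, beside 5.14% and 5.77% for all genes averaging 5 CPM or more. It was smaller in FABPi than in Treg for 33 of 35 members and for 57.4% of all tested genes.

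Myc (ENSMUSG00000022346, chr15:61985391-61990374, plus strand of GRCm38) had the largest fitted change of the 35. It had 513, 439, 445 and 424 CPM in FABPi replicates 1 to 4, against 384, 297, 298 and 283 CPM in Treg replicates 1 to 4. Every FABPi library lay above every Treg library, and replicate 1 was the highest in both groups. Myc rose 1.44-fold, to 455 ± 39.5 CPM in FABPi against 316 ± 46.3 CPM in Treg (SD, n = 4 each), a log2 fold change of 0.53 (SE 0.09, 95% interval 0.31 to 0.75, edgeR adjusted p = 0.000852). The differences in the 4 same-numbered pairs were 0.42, 0.56, 0.58 and 0.58 on the log2 scale. Myc was the only member called under all 20 alternatives, with adjusted p from 4.25e-09 to 0.0177, and the only member for which a change of more than 1.2-fold was called (6.06% of all tested genes).

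**Figure D3:**
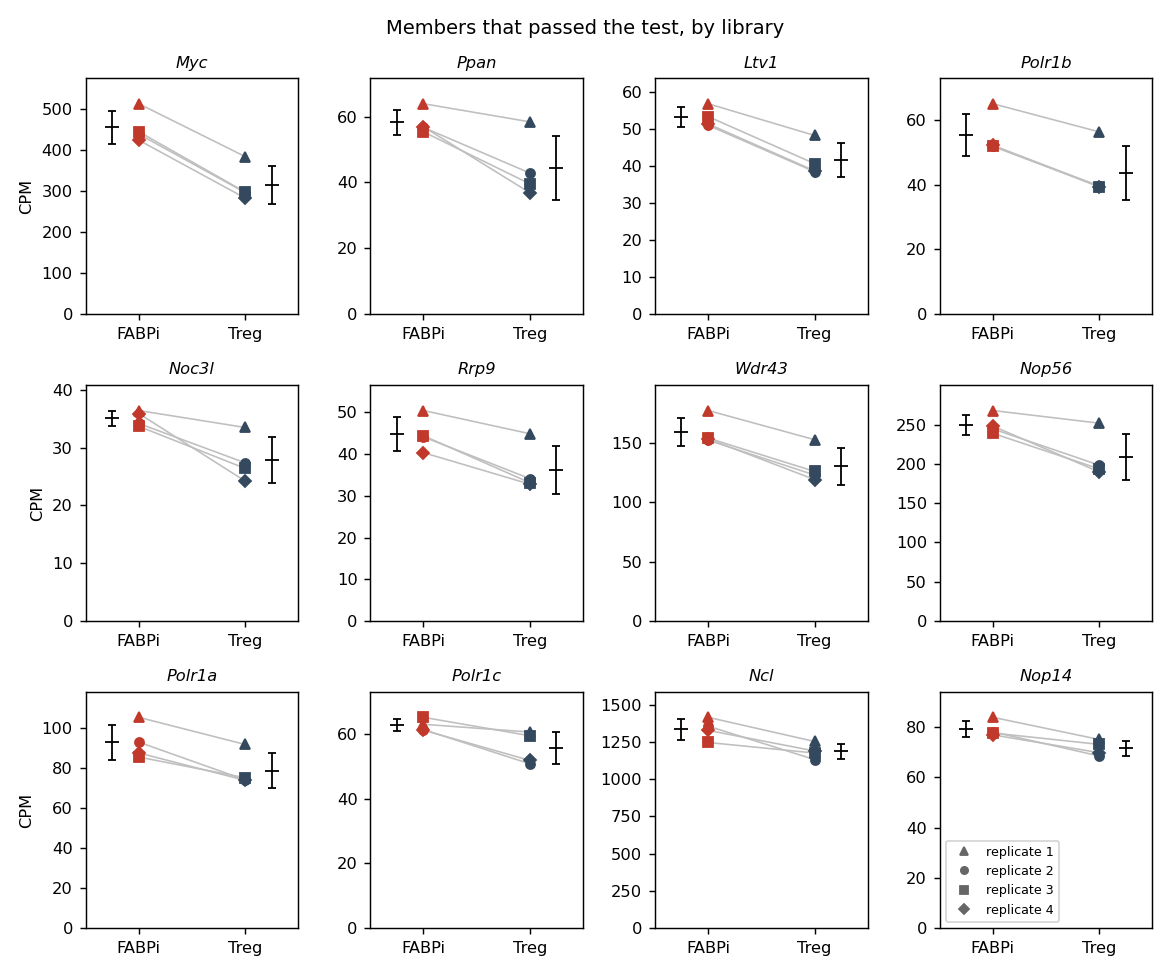
CPM of the 12 members that passed the test in each library (symbols mark the replicate number, lines join same-numbered libraries, bars give the mean and SD of 4 libraries). Every line runs lower on the Treg side, and triangles, replicate 1, are the highest symbol of their group in every panel except Polr1c in FABPi.

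MYC and MAX dimers are known to bind the E-box CACGTG, which reads the same on both strands. RefSeq promoter windows on GRCm38.p6, 250 bases before to 50 after the start of a gene, were matched for 30 of the 35 members. The motif was in a window of 7 of these 30 members (23.3%). It was in a window of 8.09% of all 27025 genes with windows and of 11.6% of the 10127 of them that were tested. Of the 11 such members that passed the test 2 had it, Ltv1 and Wdr43, and of the 19 that did not 5 had it, Nop2, Utp20, Pes1, Mybbp1a and Tsr1. The matches of 4 genes are shown 5′ to 3′ on the gene's strand with the E-box in capitals. They are those of both members that passed, of Nop2, where the motif starts 60 bases before the start annotated by RefSeq, and of Pes1, which was lower with the replicate block. Counted from 1 at the start that RefSeq annotates, which can differ from the GENCODE M21 gene ends given here, the motif begins at base 29 in Ltv1, 18 in Wdr43 and 3 in Pes1. A match describes these letters and is not a measured binding site.
Ltv1, chr10:13193092-13193121, minus strand: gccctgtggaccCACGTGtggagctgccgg
Wdr43, chr17:71616220-71616249, plus strand: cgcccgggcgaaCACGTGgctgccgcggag
Nop2, chr6:125131811-125131840, plus strand: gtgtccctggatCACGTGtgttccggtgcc
Pes1, chr11:3963965-3963994, plus strand: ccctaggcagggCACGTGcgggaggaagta

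All 3 members that belong to RNA polymerase I were higher in FABPi, without the block (18.7% of all tested genes) and with it (26.6%). Polr1d, a subunit outside the members, was lower and is described below. Polr1a and Polr1b encode its largest subunits, which form the catalytic centre, and Polr1c a subunit shared with RNA polymerase III. Polr1b had 64.9, 52.0, 51.8 and 52.1 CPM in FABPi replicates 1 to 4, against 56.3, 39.6, 39.4 and 39.3 CPM in Treg replicates 1 to 4. Treg replicate 1 lay above FABPi replicates 2, 3 and 4, so the groups overlapped. Polr1b rose 1.27-fold (log2 fold change 0.34, SE 0.12, edgeR adjusted p = 0.0377), Polr1a 1.18-fold (log2 fold change 0.24, SE 0.08, adjusted p = 0.0366) and Polr1c 1.13-fold (log2 fold change 0.17, SE 0.06, adjusted p = 0.0431). Polr1a averaged 93.0 ± 8.94 CPM in FABPi and 78.8 ± 8.75 CPM in Treg, and Polr1c 62.7 ± 1.85 and 55.7 ± 5.09 CPM (SD, n = 4 each). The calls changed with the libraries used. Polr1b was not called without FABPi replicates 1, 2, 3 or 4 or Treg replicates 2, 3 or 4 (adjusted p = 0.0501 to 0.111), Polr1a without FABPi replicates 1 or 2 or Treg replicates 2, 3 or 4 (adjusted p = 0.075 to 0.106) and Polr1c without FABPi replicates 1, 2, 3 or 4 or Treg replicates 2 or 4 (adjusted p = 0.0659 to 0.139). Polr1c was also not called with DESeq2 size factors or by DESeq2. All 3 were called without Treg replicate 1, and with both libraries of replicate 1 left out (Polr1b adjusted p = 7.83e-06, Polr1a 0.000408, Polr1c 0.0122).

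Of 13 other genes of RNA polymerase I and its initiation factors, 4 were higher and 1 was lower. The shares of all tested genes were 18.7% and 18.1%. With the replicate block, 7 were higher and 1 lower, beside 26.6% and 25.8% of all tested genes. The median log2 fold change was 0.10. Taf1a, a subunit of the promoter selectivity factor, had 15.4 ± 1.63 CPM in FABPi and 11.4 ± 0.889 CPM in Treg and rose 1.35-fold (edgeR adjusted p = 0.0022). Tcof1 encodes treacle, a nucleolar protein that assists the polymerase. It had 303, 289, 297 and 290.3 CPM in FABPi replicates 1 to 4, against 248, 235, 239.8 and 234 CPM in Treg replicates 1 to 4. The groups did not overlap, and Tcof1 rose 1.23-fold (log2 fold change 0.30, SE 0.04, edgeR adjusted p = 8.17e-05). Taf1d, of the same selectivity factor, rose 1.22-fold (adjusted p = 0.00108). Polr1d, a subunit that pairs with Polr1c in the polymerase, went the other way and fell to 92.8 ± 7.47 CPM in FABPi, against 111 ± 5.89 CPM in Treg (log2 fold change -0.26, adjusted p = 0.00489).

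Among the 10 factors of the small subunit, 4 were higher without the block (18.7% of all tested genes) and 10 of 10 with it (26.6%), and the median log2 fold change was 0.23. Ltv1, which takes part in the late maturation and export of the small subunit, had 56.9, 51.1, 53.4 and 51.5 CPM in FABPi replicates 1 to 4, against 48.3, 38.5, 40.7 and 38.8 CPM in Treg replicates 1 to 4. The groups did not overlap. Ltv1 (ENSMUSG00000019814, chr10:13178140-13193168, minus strand) rose 1.28-fold (log2 fold change 0.36, SE 0.07, edgeR adjusted p = 0.00216) and missed the threshold under 1 of the 20 alternatives, the one that required a change of more than 1.2-fold. Wdr43, an early factor that joins transcription to processing of the precursor, had 177, 152, 154 and 153 CPM in FABPi replicates 1 to 4, against 152, 123, 126 and 119 CPM in Treg replicates 1 to 4. The groups overlapped narrowly, since Treg replicate 1 lay just above FABPi replicate 2. Wdr43 rose 1.22-fold (log2 fold change 0.29, SE 0.08, adjusted p = 0.0116) and was called whichever single library was left out, but not without both libraries of replicate 2 or 3 (adjusted p = 0.0624 to 0.065).

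Rrp9, a protein of the snoRNP that guides the first cuts of the precursor, had 44.8 ± 4.17 CPM in FABPi and 36.2 ± 5.79 CPM in Treg (SD, n = 4 each) and rose 1.24-fold (log2 fold change 0.31, SE 0.10, edgeR adjusted p = 0.0296). It was not called without FABPi replicates 1, 2 or 3 or Treg replicates 2, 3 or 4 (adjusted p = 0.0557 to 0.0928). Nop14, a factor of the early small subunit particle, had 84.0, 78.2, 77.7 and 77.0 CPM in FABPi replicates 1 to 4, against 75.2, 68.6, 73.2 and 69.9 CPM in Treg replicates 1 to 4. The groups did not overlap, although the rise was 1.11-fold (adjusted p = 0.0261). Nop14 was not called without FABPi replicates 1 or 2 or Treg replicates 2, 3 or 4 (adjusted p = 0.0501 to 0.0925). The other 6 had positive log2 fold changes and did not pass without the block. All 6 were called with it, without Treg replicate 1 and without both libraries of replicate 1. Heatr1 was also called by DESeq2 and limma-voom and with upper-quartile scaling or library totals, and Heatr1, Rrp12, Utp20 and Noc4l with no filter on low counts. Rrp12, an export factor, was at 0.31 (adjusted p = 0.0799, 4.93e-05 with the block). Heatr1, an early factor also needed for transcription by RNA polymerase I, was at 0.26 (0.0559, 3.36e-05 with the block). Utp20, of the early particle, was at 0.21 (adjusted p = 0.0992, 0.000142 with the block), and Noc4l, a partner of Nop14, at 0.21 (0.109, 0.000125 with the block). Bysl and Tsr1, which act late in small subunit maturation, were at 0.17 and 0.16 (adjusted p = 0.215 and 0.251, 0.00176 and 0.00109 with the block).

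Of 43 other small subunit genes tested, 8 were higher (18.6%, near the 18.7% of all tested genes) and 2 lower, with a median of 0.09. With the block, 23 were higher and 5 lower, beside 26.6% and 25.8% of all tested genes. Those with the largest rises were Nat10, an RNA acetyltransferase (70.1 ± 5.36 CPM in FABPi and 56.1 ± 7.12 CPM in Treg, 1.25-fold, edgeR adjusted p = 0.00916), Aatf (40.8 ± 1.13 and 32.7 ± 3.98 CPM, 1.25-fold, 0.00494) and the helicase gene Dhx37 (51.2 ± 3.46 and 42.6 ± 4.75 CPM, 1.21-fold, 0.0151). The genes that fell were Emg1, an RNA methyltransferase (131 ± 7.93 and 152 ± 15.9 CPM, 1.16-fold lower, 0.0316), and Fcf1 (39.8 ± 1.82 and 45.0 ± 2.09 CPM, 1.13-fold lower, 0.0169). Dhx37 was not called without Treg replicate 3 (adjusted p = 0.0558), Emg1 without FABPi replicates 2, 3 or 4 or Treg replicate 3 (adjusted p = 0.0508 to 0.0927) and Fcf1 without FABPi replicates 2 or 4 (adjusted p = 0.0567 to 0.058).

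Of the 11 factors of the large subunit, 2 were higher without the block (18.2%, near the 18.7% of all tested genes), and 7 were higher and 1 was lower with it, beside 26.6% and 25.8% of all tested genes. The median log2 fold change was 0.15. Ppan, an early large subunit factor, had 63.9, 56.7, 55.4 and 56.9 CPM in FABPi replicates 1 to 4, against 58.4, 42.9, 39.6 and 36.9 CPM in Treg replicates 1 to 4. Treg replicate 1 lay within the FABPi range and the other 3 Treg libraries below it. Ppan rose 1.31-fold (log2 fold change 0.39, SE 0.12, edgeR adjusted p = 0.0206), the largest fitted change among the 34 factors, and was not called without FABPi replicate 1 or Treg replicates 2, 3 or 4 (adjusted p = 0.0501 to 0.0706). Noc3l, which travels with large subunit precursors in the nucleolus, had 36.4, 34.2, 33.7 and 35.9 CPM in FABPi replicates 1 to 4, against 33.5, 27.4, 26.4 and 24.2 CPM in Treg replicates 1 to 4. The groups did not overlap. Noc3l rose 1.26-fold (log2 fold change 0.33, SE 0.08, adjusted p = 0.00881) and was called whichever single library was left out, but not without both libraries of replicate 2, 3 or 4 (adjusted p = 0.0517 to 0.056).

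Bop1, Pes1 and Wdr12 encode the PeBoW complex, which acts in processing of the large subunit RNA, and none of the 3 passed without the block. Pes1 had 131, 117, 119 and 106 CPM in FABPi replicates 1 to 4, against 135, 122, 126 and 114 CPM in Treg replicates 1 to 4. It was lower in FABPi in all 4 pairs although the groups overlapped, with a log2 fold change of -0.07 (95% interval -0.23 to 0.09, edgeR adjusted p = 0.43, 0.0491 with the block). With the block and both libraries of replicate 2, 3 or 4 left out, it was not called (adjusted p = 0.113, 0.145 and 0.135). Wdr12 was at -0.07 (95% interval -0.31 to 0.17, adjusted p = 0.601, 0.179 with the block, 0.042 with the block and both libraries of replicate 3 left out) and Bop1 at 0.14 (95% interval -0.09 to 0.36, adjusted p = 0.263, 0.00339 with the block). Nip7 and Nop16, which join large subunit precursors, were near 0 at -0.03 (95% interval -0.32 to 0.26) and 0.02 (95% interval -0.24 to 0.27). Nip7 had 51.3, 42.8, 44.8 and 41.3 CPM in FABPi replicates 1 to 4, against 59.7, 43.1, 43.2 and 38.0 CPM in Treg replicates 1 to 4, and Treg replicate 1 was the highest of the 8 libraries. The RNA methyltransferase gene Nop2 (0.23, adjusted p = 0.105), Rrp1b (0.22, 0.063), Ebna1bp2 (0.15, 0.0941) and Noc2l (0.15, 0.106) did not pass without the block, and with it their adjusted p was 0.00029, 6.48e-05, 0.00115 and 0.00123. All 4 were also called without Treg replicate 1 and without both libraries of replicate 1, Nop2 and Rrp1b with no filter on low counts, Rrp1b and Ebna1bp2 with library totals and Rrp1b with upper-quartile scaling.

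Of 48 other large subunit genes, 11 were higher (22.9%, beside 18.7% of all tested genes) and 0 lower, with a median of 0.09. With the block, 26 were higher and 1 lower, beside 26.6% and 25.8% of all tested genes. At an unadjusted p under 0.05, 0 were lower, and DESeq2 and limma-voom called 0 lower. Mdn1, a very large ATPase that strips factors from the maturing subunit, had 145, 155, 119 and 143 CPM in FABPi replicates 1 to 4, against 110.0, 84.5, 87.1 and 102 CPM in Treg replicates 1 to 4. The groups did not overlap. Mdn1 rose 1.47-fold (log2 fold change 0.55, SE 0.09, edgeR adjusted p = 0.000719). Urb1 (43.0 ± 1.80 CPM in FABPi and 31.5 ± 4.25 CPM in Treg, 1.37-fold, adjusted p = 0.00108) and Nle1, which acts with Mdn1 (36.0 ± 1.70 and 28.5 ± 4.33 CPM, 1.27-fold, 0.0104), also rose.

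Of the 5 snoRNP genes, 1 was higher without the block (18.7% of all tested genes) and 4 with it (26.6%), and the median log2 fold change was 0.13. Nop56, Nop58 and Fbl encode proteins of the box C/D particles that methylate ribosomal RNA, with Fbl as the enzyme. Nop56 had 268, 244, 239 and 248 CPM in FABPi replicates 1 to 4, against 252, 198, 194 and 189.6 CPM in Treg replicates 1 to 4. Treg replicate 1 lay within the FABPi range and the other Treg libraries below it. Nop56 rose to 249.8 ± 12.6 CPM in FABPi, against 208 ± 29.2 CPM in Treg (log2 fold change 0.26, SE 0.08, edgeR adjusted p = 0.0247) and was not called without FABPi replicate 1 or Treg replicates 2, 3 or 4 (adjusted p = 0.0622 to 0.0826). Nop58 was at 0.25 (SE 0.09, adjusted p = 0.0559, 8.25e-05 with the block). Fbl had 132, 120.1, 121 and 115 CPM in FABPi replicates 1 to 4, against 137, 122, 119 and 112 CPM in Treg replicates 1 to 4. The groups overlapped throughout, and the 95% interval of its log2 fold change was -0.16 to 0.15 (adjusted p = 0.982). Whether Fbl differed from Nop56 or Nop58 was not tested. Dkc1, the enzyme of the box H/ACA particles that make pseudouridine, was at 0.08 (95% interval -0.17 to 0.34, adjusted p = 0.573, 0.0386 with the block). With the block and both libraries of replicate 2, 3 or 4 left out, Dkc1 was not called (adjusted p = 0.203, 0.102 and 0.151). Nolc1, a chaperone of both kinds of particle, was at 0.13 (adjusted p = 0.378, 0.00378 with the block).

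Of 13 other genes of snoRNPs and their assembly, 1 was higher and 2 were lower, beside 18.7% and 18.1% of all tested genes. With the block, 2 were higher and 4 lower, beside 26.6% and 25.8% of all tested genes. The median was -0.07. Nop10, a small protein of the box H/ACA particles, fell to 42.0 ± 5.99 CPM in FABPi, against 56.6 ± 8.35 CPM in Treg (1.35-fold lower, edgeR adjusted p = 0.00936). The assembly factor genes Znhit3 (9.95 ± 0.350 CPM in FABPi and 12.8 ± 2.97 CPM in Treg, 1.29-fold lower, adjusted p = 0.0461) and Znhit6 (17.4 ± 1.24 and 14.7 ± 1.65 CPM, 1.18-fold higher, 0.0385) were not called without some single libraries. For Znhit3 these were FABPi replicates 1, 2, 3 or 4 and Treg replicates 1, 2 or 3 (adjusted p = 0.0549 to 0.107), and for Znhit6 FABPi replicates 1 or 4 or Treg replicates 2, 3 or 4 (adjusted p = 0.0862 to 0.116).

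The 5 genes of multifunctional nucleolar proteins had positive log2 fold changes with a median of 0.19, and 1 was higher without the block (18.7% of all tested genes) and 4 with it (26.6%). Ncl, nucleolin, binds the precursor RNA and ribosomal DNA chromatin. It had 1416, 1357, 1247 and 1328 CPM in FABPi replicates 1 to 4, against 1253, 1132, 1176 and 1189.7 CPM in Treg replicates 1 to 4. FABPi replicate 3 and Treg replicate 1 overlapped. Ncl rose 1.13-fold (log2 fold change 0.17, SE 0.05, edgeR adjusted p = 0.0206) and was not called without FABPi replicates 1 or 2 or Treg replicates 2 or 3 (adjusted p = 0.0543 to 0.0764). Npm1, nucleophosmin, a chaperone of the outer nucleolus, had 1501, 1394, 1410.2 and 1382 CPM in FABPi replicates 1 to 4, against 1445, 1321, 1351 and 1313 CPM in Treg replicates 1 to 4. It was higher in FABPi in each same-numbered pair, but the groups overlapped and it passed in neither fit (log2 fold change 0.07, 95% interval -0.05 to 0.18, adjusted p = 0.296, 0.0781 with the block). Gnl3, nucleostemin, was at 0.25 (adjusted p = 0.121, 0.000601 with the block). Mybbp1a, a nucleolar repressor of several transcription factors, was at 0.21 (0.0733, 5.14e-05 with the block), and the RNA helicase gene Ddx21 at 0.19 (0.087, 6.47e-05 with the block).

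Over all 4 of these lists, 24 of 117 other ribosome biogenesis genes were higher and 5 lower, beside 18.7% and 18.1% of all tested genes, with a median of 0.08. With the block, 58 were higher and 11 lower, beside 26.6% and 25.8% of all tested genes. Without Treg replicate 1, 53 were higher (20.1% of all tested genes), and without Treg replicate 2 or 3, 12 each (14.2%). The count of lower genes was 2 without FABPi replicate 2 (2007 of 14592 over all tested genes) or FABPi replicate 4 (2028 of 14578). It was 3 without FABPi replicate 3 (2352 of 14595) or Treg replicate 3 (2034 of 14626). The cytosolic ribosomal protein genes, which encode the structural proteins of the ribosome itself, had a median of -0.09. Of 81 tested, 0 were higher and 15 lower without the block (18.5%, near the 18.1% of all tested genes), and 1 was higher and 36 lower with it, beside 26.6% and 25.8% of all tested genes. At an unadjusted p under 0.05, 0 were higher, and DESeq2 and limma-voom called 0 higher. Among those that fell were Rps27l (46.7 ± 3.48 CPM in FABPi and 62.2 ± 9.70 CPM in Treg, 1.33-fold lower, edgeR adjusted p = 0.0061) and Rps25 (453 ± 36.8 and 547 ± 51.3 CPM, 1.21-fold lower, 0.0126). The count of lower genes moved with single libraries. It was 5 without FABPi replicate 2 (2007 of 14592 over all tested genes) and 23 without FABPi replicate 3 (2352 of 14595). It was 5 without FABPi replicate 4 (2028 of 14578) and 5 without Treg replicate 2 (2074 of 14631). It was 4 without Treg replicate 3 (2034 of 14626) and 26 without Treg replicate 4 (2560 of 14634). Summed over the list, the level was 70942 ± 4129 CPM in FABPi and 74594 ± 3187 CPM in Treg (SD, n = 4 each). It was 72311, 67900.1, 76173 and 67383 CPM in FABPi replicates 1 to 4, against 76619, 75519.9, 76372 and 69866 CPM in Treg replicates 1 to 4. The groups overlapped, and FABPi was lower in each same-numbered pair, by little in that of replicate 3.

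**Figure D4:**
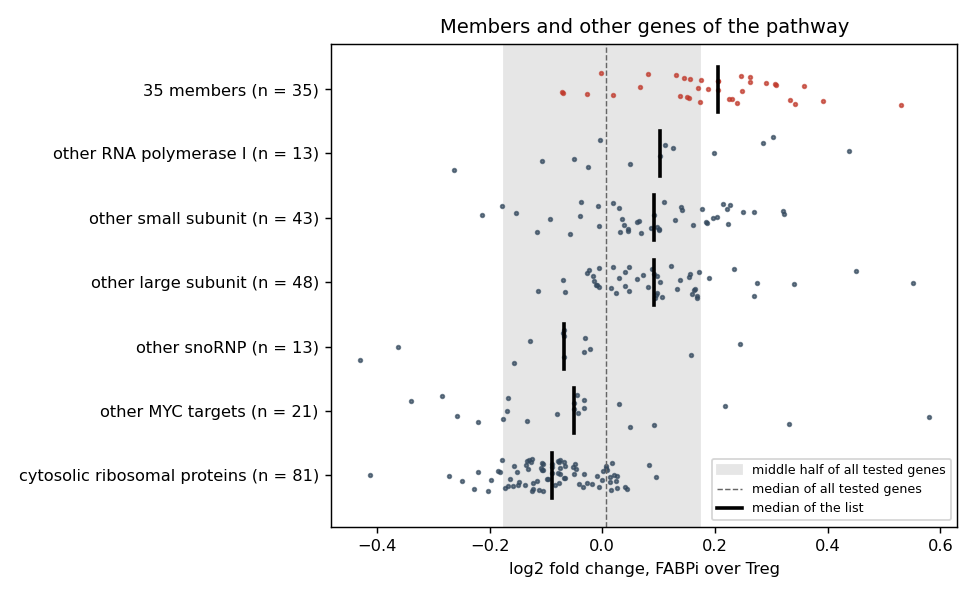
Fitted log2 fold change, FABPi over Treg, of every tested gene (dots) of the 35 members and of 6 lists of other genes, with the median of each list (black bar) and, in grey, the range between the quartiles of all tested genes. The medians of the members (0.21), the other polymerase genes (0.10) and both other subunit lists (0.09 each) lie above 0, and those of the other snoRNP genes (-0.07), other MYC targets (-0.05) and ribosomal proteins (-0.09) below it.

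MYC acts within a network of proteins around MAX, some of which compete for MAX or oppose MYC. Of 11 genes of this network tested beside Myc, 3 were higher and 3 lower (27.3% each), with or without the block. Over all tested genes, 18.7% were higher and 18.1% lower without the block, and 26.6% and 25.8% with it. Max itself had 212 ± 10.7 CPM in FABPi and 207 ± 15.0 CPM in Treg (log2 fold change 0.03, 95% interval -0.10 to 0.17, edgeR adjusted p = 0.668). Mxd1, which pairs with MAX to repress transcription, had 277, 277, 282 and 292 CPM in FABPi replicates 1 to 4, against 187, 190.0, 187 and 190.4 CPM in Treg replicates 1 to 4. The replicates lay close together and the groups far apart. Mxd1 rose 1.50-fold (log2 fold change 0.58, SE 0.04, adjusted p = 2.66e-07). Its relatives Mxd3 and Mxd4 were lower. Mxd3 fell to 26.8 ± 0.998 CPM in FABPi, against 39.3 ± 2.77 CPM in Treg (1.47-fold lower, adjusted p = 1.72e-05). Mxd4 had 64.3, 74.9, 75.7 and 69.8 CPM in FABPi replicates 1 to 4, against 78.4, 113, 112 and 113 CPM in Treg replicates 1 to 4. Replicate 1 was the lowest library in both groups, opposite to the ribosome biogenesis genes, and Mxd4 fell to a level 1.47-fold lower (adjusted p = 0.00156). Mycl, a MYC relative with few reads, had 1.18 ± 0.190 CPM in FABPi and 1.87 ± 0.256 CPM in Treg (log2 fold change -0.65, adjusted p = 0.0086).

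Mga, which represses MYC and MAX sites, rose to 129 ± 9.45 CPM in FABPi, against 108 ± 3.96 CPM in Treg (edgeR adjusted p = 0.00271). Mxi1 had 129.8 ± 7.27 CPM in FABPi and 116 ± 6.26 CPM in Treg (adjusted p = 0.0336) and was not called without FABPi replicates 1, 2 or 3 or Treg replicates 2 or 4 (adjusted p = 0.0621 to 0.0957). Mnt (-0.02, adjusted p = 0.82), Mlx (-0.09, 0.265), Mlxip (0.08, 0.356) and Zbtb17 (0.09, 0.14) had log2 fold changes that did not pass.

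**Figure D5:**
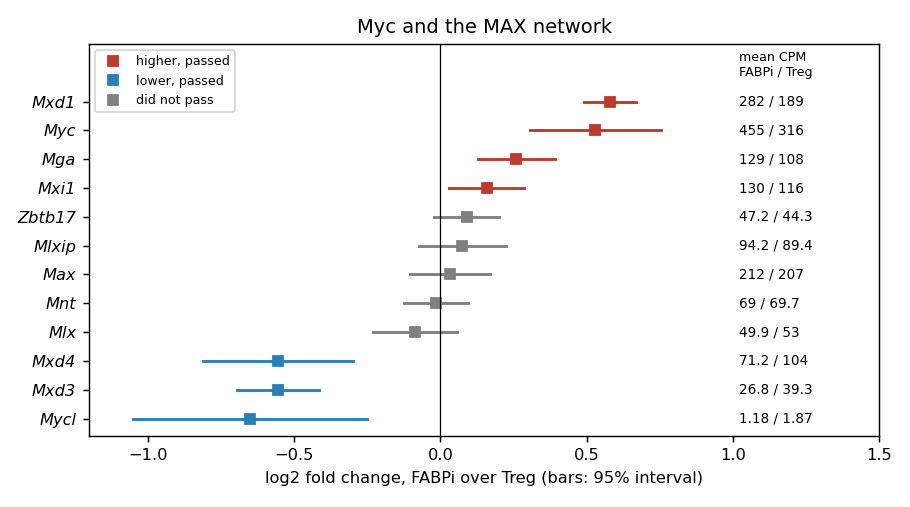
Fitted log2 fold change, FABPi over Treg, of Myc and 11 genes of the MAX network, with 95% intervals (bars) and mean CPM of FABPi and Treg at the right; red squares were higher, blue lower and grey did not pass. Mxd1 at 0.58 and Myc at 0.53 lie at the top, and Mxd4 and Mxd3 at -0.55 and Mycl at -0.65 at the bottom.

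Of 21 other genes widely used as MYC targets, outside ribosome assembly, 2 were higher (9.5%) and 4 lower (19.0%), with a median of -0.05. Over all tested genes the shares were 18.7% and 18.1%, so the lower count was near the share of all genes. With the block, 4 were higher and 8 lower, beside 26.6% and 25.8% of all tested genes. Without Treg replicate 1, 4 were higher and 1 lower, and without any other single library 1 was higher. The count of lower genes was 0 without FABPi replicate 2, 3 or 4 or Treg replicate 3, and 1 without Treg replicate 2. It was 6 without FABPi replicate 1 and 5 without Treg replicate 4. Over all tested genes, single omissions gave from 2007 of 14592 lower (FABPi replicate 2) to 2779 of 14638 (Treg replicate 1). The shares higher were 14.2% to 20.1%. Ccnd2, cyclin D2, had 1043, 1001, 1011 and 1022 CPM in FABPi replicates 1 to 4, against 743, 663, 657 and 665 CPM in Treg replicates 1 to 4. The groups did not overlap, and Ccnd2 rose 1.49-fold (log2 fold change 0.58, SE 0.05, edgeR adjusted p = 2.62e-06). The other named calls of this list each depended on single libraries. Hspd1, a mitochondrial chaperone, rose 1.16-fold (adjusted p = 0.0354) and was not called without FABPi replicates 1, 2, 3 or 4 or Treg replicates 2, 3 or 4 (adjusted p = 0.0504 to 0.111). Ran, a nuclear transport GTPase, fell to 382 ± 40.4 CPM in FABPi, against 465 ± 67.1 CPM in Treg (adjusted p = 0.0392), and was not called without FABPi replicates 2, 3 or 4 or Treg replicates 1, 2 or 3 (adjusted p = 0.0543 to 0.115). Apex1, a DNA repair enzyme, fell to 71.6 ± 6.16 CPM in FABPi, against 85.7 ± 10.2 CPM in Treg (adjusted p = 0.0277), and was not called without FABPi replicates 2, 3 or 4 or Treg replicate 3 (adjusted p = 0.0656 to 0.0833). Cdk4, a cell cycle kinase, fell to 307 ± 21.9 CPM in FABPi, against 347 ± 23.1 CPM in Treg (adjusted p = 0.0384), and was not called without FABPi replicates 2, 3 or 4 or Treg replicates 1, 2 or 3 (adjusted p = 0.0659 to 0.112).

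The members lie on 16 chromosomes, 20 of them on the plus strand. In the GENCODE M21 annotation of GRCm38, 8 members hold 23 annotated small nucleolar RNAs inside them, 5 in Nop56, 4 in Nop58, 3 each in Ncl, Gnl3 and Wdr43, 2 each in Tsr1 and Ppan and 1 in Dkc1. These RNAs carry no poly(A) tail and were not analysed here. The exons of 16 members share bases with a gene on the opposite strand, and the sources used here do not give whether counting was by strand. For Rrp9 this partner is Parp3, with 20 shared bases, which had 121 CPM in FABPi and 90.0 CPM in Treg (log2 fold change 0.43, edgeR adjusted p = 0.000401). For Heatr1 it is Lgals8, with 155 shared bases (log2 fold change 0.43, adjusted p = 7.14e-05). No other partner that was tested passed, among them those with the largest overlaps. These were Srr with 1240 bases of Tsr1 (log2 fold change 0.18, edgeR adjusted p = 0.157) and Samd11, with few reads, with 598 of Noc2l (0.51, 0.176). Ccnd3 shared 361 bases with Bysl (-0.11, 0.0863). The part of these shared bases in the members' values was not tested.

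Marker genes of other cells that the cultures could hold were summed per library. The sums in FABPi and Treg were 10.2 to 14.9 and 9.89 to 14.3 CPM for 2 CD8 T cell markers, 4.74 to 7.45 and 5.86 to 8.72 CPM for 5 B cell markers, and 3.13 to 6.05 and 4.47 to 6.37 CPM for 6 myeloid markers. They were 2.57 to 5.06 and 1.25 to 2.82 CPM for 4 NK cell markers, with Ncr1 and Klra8 at 0, and at most 0.168 and 0.403 CPM for 4 erythroid markers, with Hbb-bs at 0. Those of 4 megakaryocyte and platelet markers were 1.91 to 3.03 and 1.30 to 2.67 CPM, with Ppbp and Gp9 at 0. The 5 dendritic cell markers summed to 8.17 to 11.5 CPM in FABPi and 3.93 to 4.42 CPM in Treg, mostly from Zbtb46, which was higher (8.89 and 3.60 CPM, edgeR adjusted p = 1.33e-05). The 4 stromal markers summed to 99.5 to 108 CPM in FABPi and 115 to 124 CPM in Treg, mostly from Pecam1, which was lower (99.1 and 117 CPM, adjusted p = 0.000699), with Col3a1 at 0. Col1a2 of the same list was higher, at 4.10 ± 0.769 CPM in FABPi and 1.99 ± 0.167 CPM in Treg (SD, n = 4 each, log2 fold change 1.05, adjusted p = 0.000208). The other calls in these lists were Eomes (NK cells), which was higher, and Cd79b (B cells) and Adgre1 (myeloid cells), which were lower. Of the 7 T cell and Treg markers 3 were higher, Foxp3, Il2ra and Ikzf2, and 2 lower, Cd3e and Cd3d. Their sums were 5873 to 6268 CPM in FABPi and 4819 to 5442 CPM in Treg. Mitochondrially encoded genes took 0.563 ± 0.0549% of counts in FABPi and 0.706 ± 0.0581% in Treg (SD, n = 4 each). The part of these differences in the members' values was not tested.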

How the data were processed

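RNA was sequenced from 8 libraries of polarized mouse Tregs, 4 FABPi and 4 Treg, with a stranded poly(A) kit. The authors deposited raw whole-number counts per Ensembl gene for each library. GRCm38 is the build, and deepTools, STAR, DESeq2 and featureCounts are the tools, named per the submitters' processing notes. Their versions, roles and strand setting are not given in the sources used here. Groups and replicate numbers came from the titles.

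Of the 53465 gene IDs, 53360 had a symbol in GENCODE M21, and the other 105 held 0.0063% of counts. Members and gene lists were chosen with earlier results of these data known, and no list was tested as a set. The main test was the quasi-likelihood F-test of edgeR 4.0.16 in R 4.3.3 on genes kept by filterByExpr, with TMM scaling, treatment as the only term, 6 residual degrees of freedom and Benjamini-Hochberg adjustment over all 14443 tested genes. A gene was called at an adjusted p under 0.05, and adjusted p-values in the text are from this test unless a sentence names another. The SE was derived from the F statistic, and fold changes are fitted values. Intervals of 95% used the t distribution with the 6 residual degrees of freedom, fewer than the test itself used. They are therefore wider than the test implies, and some include 0 although the unadjusted p was under 0.05. CPM were scaled to TMM library sizes. Pair differences are log2 ratios after adding 0.5 CPM. The test was checked on simulated counts with 200 genes changed by known folds. It called 100% of the 1.5-fold changes and 70% of the 1.25-fold changes, and 7.1% of its calls were false. The simulated libraries were drawn independently, without the deviation that replicate 1 showed over the members, and far fewer genes changed than were called here. These rates therefore cannot be carried over to the members.

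Between replicates of 1 group, chi-square divided by its degrees of freedom was 2.72 to 19.8 over genes with at least 20 counts, above sampling noise, so each counted as 1 sample. Same-numbered libraries had correlated deviations from their group means (0.384, 0.145, 0.106 and 0.264 for numbers 1 to 4, all above 0.1). On that basis the samples were treated as paired by number in the replicate block, which no label states, and not in the main test. FABPi replicate 2 correlated best with Treg replicate 4. Alternatives were DESeq2 size factors, upper-quartile scaling or library totals in edgeR, DESeq2 1.42.0, limma-voom (limma 3.58.1), no filter, the replicate block, a test for changes above 1.2-fold, and leaving out libraries. Intervals cover these samples only.

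All members are named. Of each other list, up to 3 called genes with the largest rise and 3 with the largest fall are named, among those averaging at least 5 CPM, and all tested genes of the MAX network. A ribosomal protein gene that this rule selects is not reported here. Listed genes not tested are Mycn, Rpl10l and Rpl3l, and 1 further small subunit gene was not analysed here. The genes Parp3, Lgals8, Zbtb46, Pecam1, Col1a2, Eomes, Cd79b and Adgre1 were chosen after their values were seen.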

Additional observations from a re-analysis of the deposited data

Results flagged for a closer look

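In 25 of 70 combinations of a member and a group, 20 members in all, 1 library stood far from the other 3 of its group, by a gap divided by the range of the group that exceeded Dixon's 95% critical value. In 25 of the 25 that library was replicate 1, and it was the highest. Chance gives such a gap in about 1 in 20 groups, and the members are not independent of each other. In FABPi the ratio of gap to range was 0.902 for Dkc1, 0.957 for Nolc1, 0.909 for Ddx21, 0.977 for Polr1b and 0.831 for Nop14. For the other FABPi cases it was 0.921 for Noc4l, 0.930 for Wdr43, 0.898 for Tsr1, 0.842 for Nop2 and 0.917 for Noc2l. In Treg it was 0.855 for Myc, 0.860 for Nop56, 0.886 for Nop58, 0.932 for Dkc1 and 0.891 for Ddx21. Further Treg cases were 0.929 for Polr1a, 0.986 for Polr1b, 0.865 for Heatr1, 0.897 for Utp20 and 0.947 for Noc4l. The last Treg cases were 0.890 for Rrp9, 0.905 for Rrp12, 0.9004 for Bysl, 0.861 for Tsr1 and 0.957 for Rrp1b. The summed level of the 34 factors without Myc had the same form, with 0.854 in FABPi and 0.847 in Treg, replicate 1 being the highest library of both groups.

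Among the other genes looked at, Treg replicate 1 was far above the other Treg libraries for Aatf (0.853), Dhx37 (0.830), Ccnd2 (0.907) and Hspd1 (0.871). It was far below them for Mxd4 (0.961). The summed level of the ribosomal protein genes in Treg also had 1 low library (0.837), replicate 4, with 69866 CPM. The labels give no batch that sets replicate 1 apart. FABPi replicate 1 had 39.7 M counts, within the range of its group, and Treg replicate 1 had 32.9 M, the lowest total of the 8 libraries. The part of depth in this was not tested.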

How the results depend on the processing

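With 12 members higher and 0 lower in the test without a block, no filter on low counts gave 22 higher, the replicate block 29 higher and 1 lower, and a required change above 1.2-fold 1 higher. Leaving out libraries gave 2 (both of replicate 2) to 29 higher (Treg replicate 1, or both of replicate 1), and medians of 0.14 to 0.29. With the block and both libraries of a number left out, 28 or 29 members were higher and 0 to 1 lower, which was Pes1 without replicate 1 and Wdr12 without replicate 3. Of all tested genes, 21.2% to 25.5% were higher in these fits. Single library omissions kept the calls of Polr1d, Nop10, Nat10, Nle1, Mycl, Rps27l and Rps25, and 1 to 3 omissions of both libraries of a number ended each (adjusted p = 0.0502 to 0.0911). Omissions of both libraries of a number were chosen after the data were seen. Across the 20 alternatives of each of 69 genes, 1093 values kept direction and call, 189 lost the call, 75 gained it and 23 changed sign; the cause was not tested. The members that changed sign lay near 0. Fbl gave 0.0084 with upper-quartile scaling, 0.017 with library totals, 0.00020 with limma-voom and 0.0035 with no filter, and -0.045 to 0.055 with libraries left out. Ranges with libraries left out were -0.0042 to 0.20 for Dkc1, -0.15 to 0.031 for Wdr12, -0.058 to 0.13 for Nop16, -0.11 to 0.12 for Nip7, -0.0039 to 0.084 for Max and -0.047 to 0.010 for Mnt, which was at 0.0040 with library totals. For the 117 other biogenesis genes, the block gave 58 higher and 11 lower, the 1.2-fold test 2 and 0, and omissions 8 to 53 higher and 0 to 5 lower. For the other MYC targets these were 4 and 8, 1 and 0, and 1 to 4 higher and 0 to 7 lower. For ribosomal proteins the block gave 1 higher and 36 lower, the 1.2-fold test 0 lower, and omissions 1 to 26 lower. The 1.2-fold test called 1 gene of the MAX network higher, and 875 higher and 706 lower of all genes. Over all genes, omissions gave 1506 to 3085 higher and 1485 to 3088 lower. No scaling moved the median of all genes by more than 0.1.

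The counts are shares of a library, the groups hold 4 libraries each, and most members had a fitted difference of less than 1.2-fold.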
